A study of Homo sapiens with 24 samples.

Results

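The transcripts described here are 38 genes of the cell's response to low oxygen. Chosen by name with earlier results of these data known, they come from the 60617 genes in the count table. They are 8 regulators of the hypoxia-inducible factor (HIF) pathway (HIF1A, EPAS1, VHL, HIF1AN, EGLN1, EGLN2, EGLN3 and CITED2) and 30 genes that HIF is known to induce, leaving out the glycolytic enzymes. The cells were 686Tu (MDA686TU), a single malignant line from a squamous cell carcinoma of the head and neck, grown in DMEM/F12 with serum. The study compared 4 groups of 6 libraries, each after 24 h: untreated control cells, cells given 40 µM EGCG (the main green tea polyphenol), cells given 15 µM resveratrol (a polyphenol of grapes), and cells given both at these doses, here called the combination. Resveratrol came from a DMSO stock and EGCG was dissolved in water. The sources used here do not say whether the control or EGCG cells received DMSO, so resveratrol and its solvent cannot be told apart. EGCG against control, and the combination against resveratrol, each change EGCG alone.

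HIF is a pair of proteins, an alpha subunit that oxygen controls and a stable beta subunit. When oxygen is present, the prolyl hydroxylases encoded by EGLN1, EGLN2 and EGLN3 mark the alpha subunits HIF-1α (HIF1A) and HIF-2α (EPAS1), and the von Hippel-Lindau protein (VHL) then directs their destruction. The asparaginyl hydroxylase FIH (HIF1AN) keeps the remaining alpha subunit from binding its coactivators, and CITED2 competes for the same coactivators. Because most of this control acts on protein, mRNA of the alpha subunits is a different quantity from HIF activity, and the mRNA of the target genes is commonly read as the output. Protein and oxygen were not measured in these libraries.

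The libraries held 7034872 to 11735574 counts. Of the listed genes, 37 of 38 were among the 15476 genes that passed edgeR's filter on low counts. ANKRD37 did not pass, with means of 7.29 normalized counts in control, 9.21 under EGCG, 6.37 under resveratrol and 9.97 under the combination. Levels are the authors' normalized counts, and comparisons of level between genes use FPKM, which divides by gene length. The squamous keratins KRT5, KRT14 and KRT6A had group means of 985 to 1654 FPKM and TP63 had 52.1 to 57.0 FPKM, as the label of the line would have it. Of 4 endothelial markers PECAM1 and KDR never exceeded 1 raw count in a library and CDH5 reached 4, but VWF had 2 to 20. Of 4 leukocyte markers PTPRC and CD3E never exceeded 1 raw count and CD79A reached 3, but CD68 had 1 to 11. No endothelial or leukocyte marker had a group mean above 0.303 FPKM. Of 5 fibroblast markers THY1 was listed at 0 in all 24 libraries, COL3A1 and PDGFRB reached 1 and 2 raw counts and COL1A2 had 12 to 33, but COL1A1 was at 11.4 to 19.3 FPKM. In replicates 1 to 3 of every group mitochondrial transcripts took 0.249% to 0.326% of the counts, against 0.448% to 0.775% in replicates 4 to 6. The labels name no batch, and this split was found in the data, so values within each set of replicates are given for the main genes. The study isolated RNA in sextuplicate without saying that the 6 cultures were grown independently, so the p-values measure the spread between these libraries, which may be partly technical.

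Sequence is shown first for the genes that the EGCG results turn on. HIF binds DNA at a short core, ACGTG or GCGTG. Both were searched on both strands in the 250 bases before the first listed RefSeq start of each gene (GRCh38.p14), and a CACGTG counts as ACGTG on both strands. Of 27305 genes in that promoter table, 18.7% had ACGTG, 31.9% had GCGTG and 43.1% had either. Of the listed genes, 30 had an entry, and 25 of them (83.3%) had either core. The 20 of 23 targets and 5 of 7 regulators with either core came to 87.0% and 71.4%. Of the targets called higher with EGCG, 8 had an entry and 7 of these (87.5%) had either core, near the share of all listed targets. A match is a description of the letters and was not tested for binding. The promoters below belong to BNIP3, CA9 and MIR210HG, the 3 listed genes that rose more than 1.5-fold with EGCG, and to BHLHE40, which had 4 matches and did not pass the test with EGCG. Capitals mark the cores, read 5′ to 3′ on the gene's own strand.
BNIP3 (chr10:131981968-131982173, minus strand, 206 bases, without 44 bases that another transcript start covers): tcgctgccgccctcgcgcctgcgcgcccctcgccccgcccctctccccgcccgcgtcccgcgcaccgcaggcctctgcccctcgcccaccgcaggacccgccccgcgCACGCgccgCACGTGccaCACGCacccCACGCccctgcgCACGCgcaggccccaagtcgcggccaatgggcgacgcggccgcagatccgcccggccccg
CA9 (chr9:35673678-35673927, plus strand, 250 bases): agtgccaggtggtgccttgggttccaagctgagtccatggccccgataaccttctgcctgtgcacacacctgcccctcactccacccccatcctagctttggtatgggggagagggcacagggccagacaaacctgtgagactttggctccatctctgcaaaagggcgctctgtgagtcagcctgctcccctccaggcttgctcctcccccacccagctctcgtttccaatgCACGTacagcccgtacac
MIR210HG (chr11:568458-568707, minus strand, 250 bases): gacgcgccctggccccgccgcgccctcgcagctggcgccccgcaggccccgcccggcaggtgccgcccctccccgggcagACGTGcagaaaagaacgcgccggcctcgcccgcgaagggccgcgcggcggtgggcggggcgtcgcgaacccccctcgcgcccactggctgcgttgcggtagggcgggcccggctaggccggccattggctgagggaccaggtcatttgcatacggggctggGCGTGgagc
BHLHE40 (chr3:4979187-4979436, plus strand, 250 bases): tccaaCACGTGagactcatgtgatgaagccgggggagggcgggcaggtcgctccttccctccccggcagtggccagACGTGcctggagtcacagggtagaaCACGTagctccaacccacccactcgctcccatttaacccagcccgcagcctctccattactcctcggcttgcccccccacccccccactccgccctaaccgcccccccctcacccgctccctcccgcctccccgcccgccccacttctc

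BNIP3 had 2 matches to ACGTG and 4 to GCGTG, CA9 had 1 match to ACGTG, and MIR210HG had 1 match to each core. MIR210HG is the noncoding transcript that carries miR-210, the microRNA best known from hypoxic cells. Its 3p arm lies on the minus strand at chr11:568112-568133 and is printed with the seed, bases 2 to 8, in capitals.
hsa-miR-210-3p: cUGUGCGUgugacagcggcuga
Only the host transcript was measured in these poly(A) libraries, and the mature microRNA was not.

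In untreated cells the pathway was unevenly expressed. HIF1A was at 57.7 ± 1.98 FPKM (SD, n = 6) and EPAS1 at 14.9 ± 0.59 FPKM, followed by CITED2 at 10.9 ± 0.46, HIF1AN at 5.79 ± 0.15 and VHL at 4.66 ± 0.55 FPKM. The prolyl hydroxylases were the lowest regulators, with EGLN1 at 1.79 ± 0.15, EGLN2 at 0.90 ± 0.18 and EGLN3 at 0.37 ± 0.06 FPKM. No neighbouring pair in this order of 8 overlapped over the 6 libraries. Among the targets, STC2, a secreted glycoprotein, was highest at 77.8 ± 1.73 FPKM, and CA9, the membrane carbonic anhydrase widely used as a marker of hypoxia, was lowest at 0.28 ± 0.07 FPKM. ADM at 33.7 ± 2.67 FPKM lay above ERO1A at 27.3 ± 1.75 FPKM without overlap, and ERO1A and P4HA1, at 26.1 ± 1.06 FPKM, overlapped.

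**Figure D1:**
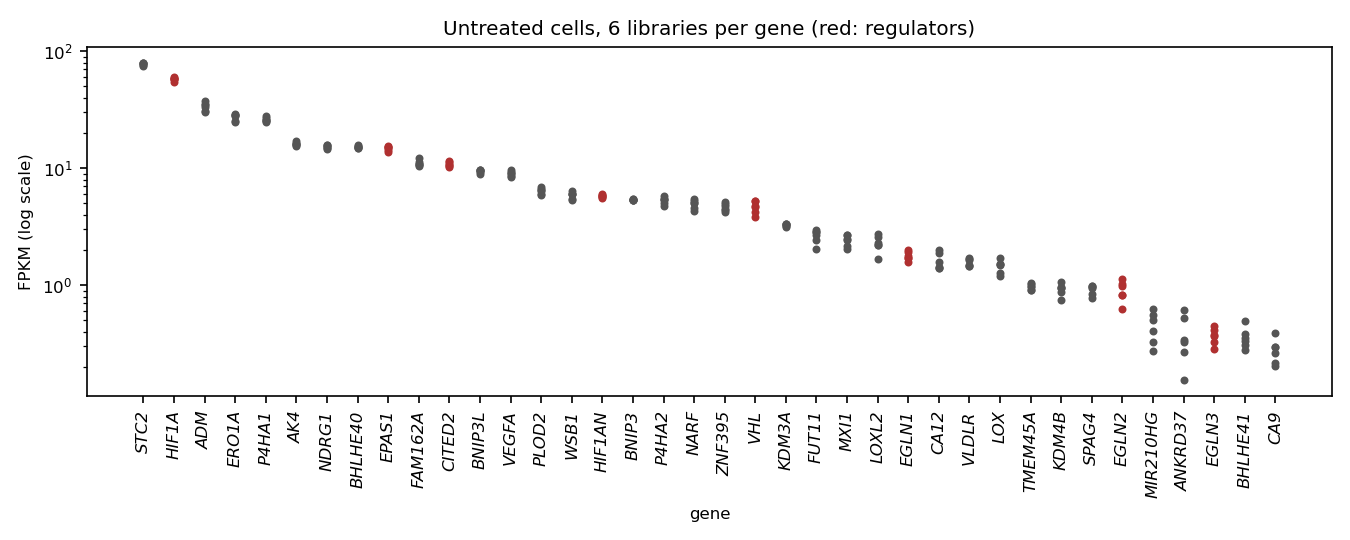
FPKM on a log scale (vertical axis) of each listed gene (horizontal axis) in the 6 untreated libraries, 1 point per library, regulators in red. The genes span from STC2 at a mean of 77.8 FPKM to CA9 at 0.28 FPKM, with HIF1A near the top and EGLN3 near the bottom.

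EGCG alone raised part of the hypoxia-inducible set and lowered none of it. With EGCG, 13 of 37 tested genes were upregulated DEGs (edgeR adjusted p under 0.1 and p under 0.05), 12 of the 29 targets and 1 of the 8 regulators. Among all tested genes 1.76% were DEGs with EGCG, 0.905% upregulated and 0.859% downregulated. Because the list was chosen with earlier results of these data known, the gap between these shares describes the list and is no independent test. The largest rises were of CA9, MIR210HG and BNIP3, and LOXL2, P4HA1, BNIP3L, NDRG1, VLDLR, STC2, P4HA2, ERO1A and VEGFA rose by less than 1.5-fold. No listed gene was downregulated by edgeR or by DESeq2, and HIF1A was the 1 gene below control at an unadjusted p under 0.05 in both tools. The fitted log2 fold change was above 0 for 29 of 29 tested targets, 6 of 8 regulators and 50.5% of all tested genes. Its median was 0.15 over the targets, 0.06 over the regulators and 0.00 over all tested genes. All 6 EGCG libraries lay above all 6 control libraries for 13 of the 37 genes and below for 0, against 0.827% and 0.801% of all tested genes. These 13 lacked the DEGs P4HA2 and VEGFA and held KDM3A and SPAG4, which were not DEGs. Replicates 1 to 3 alone, with 3 libraries a group, lost 7 of the 13 calls (BNIP3L, CA9, ERO1A, LOXL2, MIR210HG, P4HA2 and VEGFA), and replicates 4 to 6 alone lost 4 (EPAS1, P4HA2, VEGFA and VLDLR). Over all tested genes the upregulated DEGs with EGCG numbered 140 in the main fit, 45 in replicates 1 to 3 and 39 in replicates 4 to 6. ERO1A also did not pass under DESeq2 size factors or under the stricter count filter. In bulk RNA a change in the share of expressing cells and a change in each cell cannot be told apart.

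BNIP3 encodes a mitochondrial outer membrane protein that marks mitochondria for removal by autophagy. In control its normalized count ranged from 248 to 256 with a median of 251, under EGCG from 403 to 484 with a median of 442, under resveratrol from 200.2 to 251 with a median of 212, and under the combination from 343 to 389 with a median of 357. The EGCG libraries lay highest, the combination libraries next, and neither overlapped control or resveratrol. The rise with EGCG was 1.77-fold (log2 fold change 0.83 ± 0.05 SE, edgeR adjusted p = 8.1e-14), the rank 2 p-value of all tested genes. Replicates 1 to 3 alone gave 0.80 and replicates 4 to 6 gave 0.86. BNIP3P1, a pseudogene close to BNIP3 in sequence, rose by 0.89 (edgeR adjusted p = 1.6e-06), and reads of these copies may have been shared. BNIP3L, the paralogue with the same role, went from 325 to 351 (median 343) in control to 420.3 to 492 (median 437) with EGCG, a log2 fold change of 0.40 ± 0.06 (edgeR adjusted p = 1.3e-04). The other mitochondrial targets FAM162A and AK4 had log2 fold changes of 0.13 and 0.09 and did not pass (edgeR adjusted p = 0.405 and 0.39).

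CA9 had very few reads. Its raw counts were 3 to 6 per library in control, 11 to 24 under EGCG, 1 to 5 under resveratrol and 3 to 13 under the combination. In normalized counts control ranged from 2.85 to 5.53 with a median of 3.91, and EGCG from 11.9 to 18.0 with a median of 15.0, without overlap. The log2 fold change was 1.93 ± 0.28 (3.82-fold, edgeR adjusted p = 2.8e-05), with 1.62 in replicates 1 to 3 and 2.28 in replicates 4 to 6. CA9 passed the filter on low counts only through the EGCG libraries. With only the compared groups fitted, it did not pass that filter in the combination against resveratrol or against control. Its place among the tested genes thus depends on the group where it was high. CA9 overlaps ARHGEF39 on the opposite strand, which had a log2 fold change of -0.09 with EGCG and did not pass (edgeR adjusted p = 0.709). ARHGEF39 had -0.54 with resveratrol and -0.84 with the combination against control (edgeR adjusted p = 9.2e-08 and 1.32e-11). In the combination against resveratrol it had -0.30 (edgeR adjusted p = 0.024). The part of shared reads in the changes of CA9 was not tested. CA12, the other membrane carbonic anhydrase of the list, had a log2 fold change of 0.08 ± 0.10 (edgeR adjusted p = 0.865).

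MIR210HG was also low. Its normalized count ranged from 5.53 to 12.6 with a median of 9.25 in control and from 12.9 to 24.0 with a median of 20.7 with EGCG, and the lowest EGCG library lay just above the highest control library. The log2 fold change was 1.12 ± 0.24 (2.18-fold, edgeR adjusted p = 0.00601). Replicates 1 to 3 alone gave 1.01 and replicates 4 to 6 gave 1.23.

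The collagen and matrix enzymes rose in 3 of 5 cases with EGCG. P4HA1, a catalytic subunit of collagen prolyl 4-hydroxylase, ranged from 676 to 748 normalized counts (median 695) in control and from 878 to 982 (median 934) with EGCG. These ranges did not overlap, and the log2 fold change was 0.41 ± 0.03 (edgeR adjusted p = 1.3e-10). LOXL2, which cross-links collagen, went from 82.6 to 136 (median 112) in control to 141 to 169 (median 158) with EGCG, by 0.45 ± 0.09 (edgeR adjusted p = 0.00477). P4HA2, the other catalytic subunit, rose by 0.18 ± 0.05 with overlapping libraries (edgeR adjusted p = 0.0612). PLOD2, a collagen lysyl hydroxylase, and LOX, the founding lysyl oxidase, had log2 fold changes of 0.15 and 0.13 and did not pass (edgeR adjusted p = 0.36 and 0.695).

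Of the endoplasmic reticulum and secreted products, STC2 had the smallest SE. It ranged from 4033 to 4252 normalized counts (median 4194) in control and from 4600 to 4903 (median 4777) with EGCG, which did not overlap. Its log2 fold change was 0.20 ± 0.02 (1.15-fold, edgeR adjusted p = 6.6e-07). VEGFA, the angiogenic growth factor, rose by 0.14 ± 0.03 (edgeR adjusted p = 0.0315), and ERO1A, the oxidase that forms disulfides in the endoplasmic reticulum, by 0.15 ± 0.04 (edgeR adjusted p = 0.0949). ADM, the vasodilator adrenomedullin, had a log2 fold change of 0.07 ± 0.05 (edgeR adjusted p = 0.642). NDRG1, a stress-responsive gene linked to differentiation, went from 1261 to 1362 (median 1319) in control to 1670.0 to 1779 (median 1720.0) with EGCG, by 0.39 ± 0.04 (edgeR adjusted p = 2.1e-09). VLDLR, a lipoprotein receptor, went from 120 to 140 (median 128) to 152 to 182 (median 165), by 0.37 ± 0.07 (edgeR adjusted p = 0.00297), and both genes had all 6 EGCG libraries above control. The 6 chromatin and transcription targets (KDM3A, KDM4B, MXI1, BHLHE40, BHLHE41 and ZNF395) had log2 fold changes of 0.04 to 0.24 with EGCG and 0 of 6 passed, with the smallest edgeR adjusted p of 0.108 for ZNF395.

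**Figure D2:**
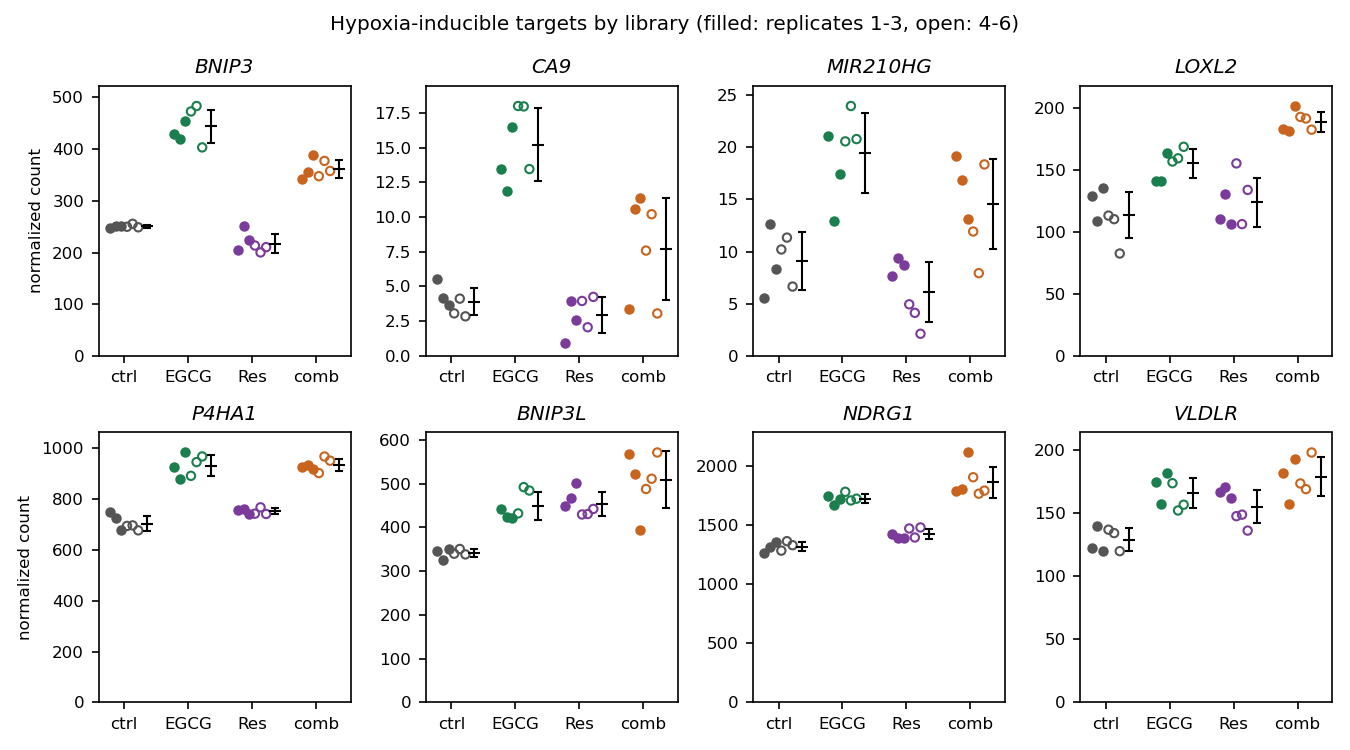
Normalized counts (vertical axes, from 0) of the 8 targets with the largest rises among DEGs with EGCG, by group (ctrl, control; Res, resveratrol; comb, combination), 1 point per library, filled for replicates 1 to 3 and open for 4 to 6, with the mean and SD over 6 libraries as a bar. In all 8 panels the EGCG points lie above every control point, and for BNIP3 the resveratrol points lie in or below the control range while the combination lies between.

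Of the 8 regulators 1 passed with EGCG and 3 were higher at an unadjusted p under 0.05 (EPAS1, EGLN1 and CITED2). EPAS1 rose from 881 to 975 normalized counts (median 962) in control to 994 to 1129 (median 1052), by 0.16 ± 0.04 on the log2 scale (edgeR adjusted p = 0.0196). HIF1A had a log2 fold change of -0.06 ± 0.03 (edgeR adjusted p = 0.483), with an approximate 95% interval of -0.12 to -0.003. EGLN1, which is both a brake on HIF and a known HIF target, had a log2 fold change of 0.31 ± 0.10 with overlapping libraries (edgeR adjusted p = 0.155), and CITED2 had 0.15 ± 0.05 (edgeR adjusted p = 0.17). VHL, HIF1AN, EGLN2 and EGLN3 lay between -0.01 and 0.07 (edgeR adjusted p of 0.723 to 0.996). For EGLN2 and EGLN3 the intervals reached 0.34 and 0.36, so a rise like that of STC2 or VEGFA would not have been detectable at this depth.

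With resveratrol 56.9% of all tested genes were DEGs, 28.9% upregulated and 28.0% downregulated. Of the listed genes 17 of 37 were upregulated (5 of 8 regulators and 12 of 29 targets) and 7 downregulated (0 regulators and 7 targets). With scaling by library size alone the listed genes divided 21 up and 2 down, and all genes 6147 up and 2857 down in place of 4466 and 4341. No regulator was below control at an unadjusted p under 0.05 in edgeR or DESeq2.

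The alpha subunits and several of their brakes rose together with resveratrol. EPAS1 ranged from 1577 to 1750.0 normalized counts (median 1652) against 881 to 975 in control, a 1.76-fold rise (0.82 ± 0.04, edgeR adjusted p = 6.6e-20). CITED2 ranged from 392 to 424 (median 406) against 231 to 256 (median 242), a 1.68-fold rise (0.75 ± 0.05, edgeR adjusted p = 7.4e-16). These were the 2 listed DEGs past 1.5-fold with resveratrol. HIF1A went from 2438 to 2690.0 (median 2590.0) to 3042 to 3222 (median 3138), by 0.28 ± 0.03 (edgeR adjusted p = 5.4e-10). VHL rose by 0.34 ± 0.07 (edgeR adjusted p = 7.1e-05) and HIF1AN by 0.28 ± 0.03 (edgeR adjusted p = 2.3e-08). In all 5 genes every resveratrol library lay above every control library. Over the 37 genes 11 had this pattern and 5 the reverse, against 15.3% and 15.8% of all tested genes. The 3 prolyl hydroxylases did not pass, with log2 fold changes of -0.07 for EGLN1, -0.18 for EGLN2 and 0.02 for EGLN3.

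Because EPAS1 moved more than HIF1A, the ratio of their FPKM was computed in each library, as a description. It ranged from 0.243 to 0.267 (median 0.259) in control, from 0.275 to 0.317 (median 0.305) under EGCG, from 0.353 to 0.392 (median 0.374) under resveratrol and from 0.43 to 0.495 (median 0.444) under the combination. No 2 groups overlapped, and HIF1A remained the more abundant transcript per length in all 24 libraries.

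**Figure D3:**
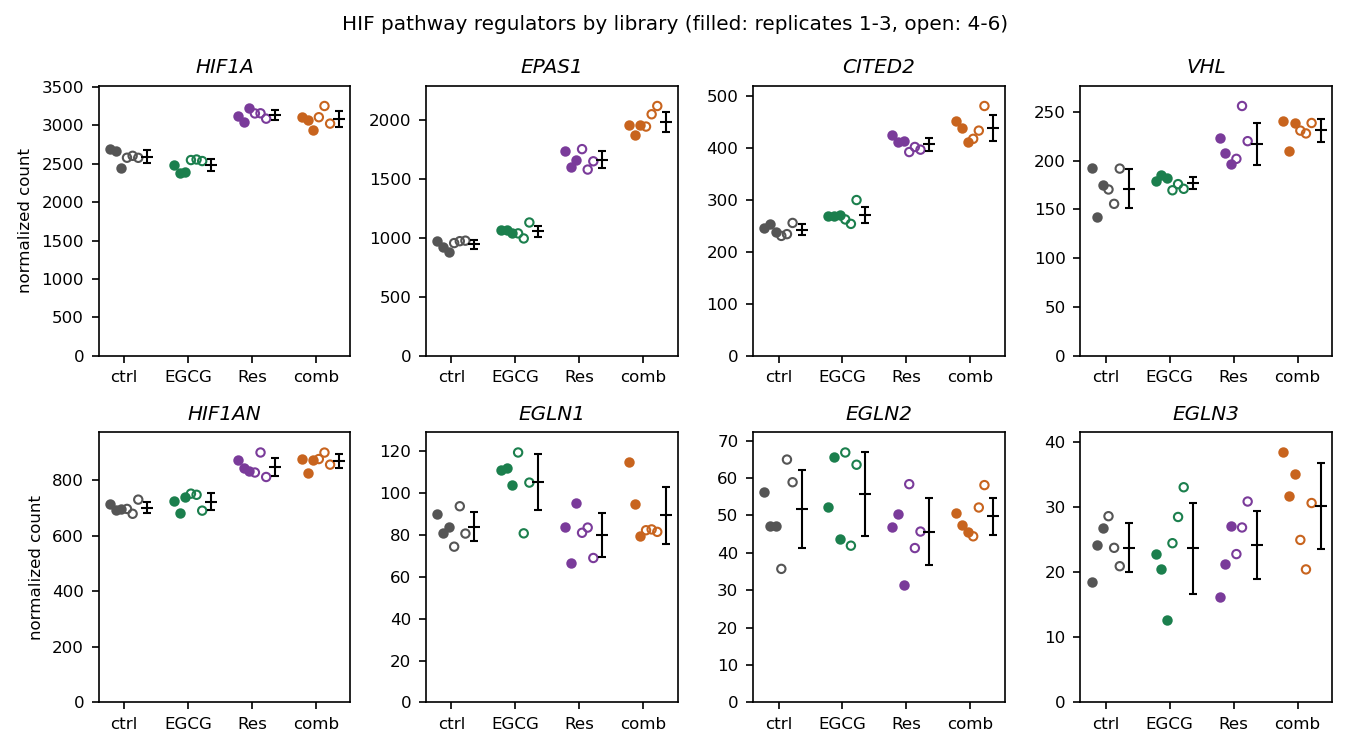
Normalized counts (vertical axes, from 0) of the 8 HIF pathway regulators by group (ctrl, control; Res, resveratrol; comb, combination), 1 point per library, filled for replicates 1 to 3 and open for 4 to 6, with the mean and SD over 6 libraries as a bar. HIF1A, EPAS1, CITED2, VHL and HIF1AN lie higher with resveratrol and with the combination than in control, while EGLN1, EGLN2 and EGLN3 overlap between groups.

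Of the 29 targets 12 rose and 7 fell with resveratrol, 41.4% and 24.1%, against 28.9% and 28.0% of all tested genes, so the share that fell lay near that of all genes. The 12 that rose were BNIP3L, NDRG1, P4HA1, P4HA2, VEGFA, VLDLR, BHLHE40, BHLHE41, KDM4B, LOX, MXI1 and WSB1. BHLHE40, a transcriptional repressor of the circadian clock, ranged from 676 to 732 normalized counts (median 716) against 496 to 527 (median 506) in control, a rise of 0.48 ± 0.04 (edgeR adjusted p = 3.2e-13). Its paralogue BHLHE41 rose by 0.57 ± 0.19 at only 9 to 28 raw counts per library (edgeR adjusted p = 0.0147), and the MYC antagonist MXI1 by 0.42 ± 0.08 (edgeR adjusted p = 2.5e-05). BNIP3L rose by 0.41 ± 0.06 (edgeR adjusted p = 8.4e-07) and VEGFA by 0.29 ± 0.03 (edgeR adjusted p = 6.8e-09). KDM4B, a histone demethylase, rose by 0.31 ± 0.07 and LOX by 0.29 ± 0.09 (edgeR adjusted p = 6.4e-04 and 0.00788).

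The 7 targets that fell with resveratrol were BNIP3, ERO1A, ADM, AK4, FAM162A, TMEM45A and ZNF395. ADM ranged from 524 to 567 normalized counts (median 535) against 615 to 756 (median 695) in control, and fell by 0.33 on the log2 scale (SE 0.05, edgeR adjusted p = 1.9e-07). AK4, a mitochondrial adenylate kinase, ranged from 829 to 898 (median 850.4) against 1030.0 to 1123 (median 1056) and fell by 0.31 (SE 0.04, edgeR adjusted p = 1.2e-08). Its pseudogenes AK4P1 and AK4P3 had log2 fold changes of -0.31 and -0.47, and reads may be shared with AK4. BNIP3 fell by 0.20 (SE 0.06, edgeR adjusted p = 0.00427), with 1 resveratrol library inside the control range. Its fall, and those of ERO1A, FAM162A, TMEM45A and ZNF395, did not pass when libraries were scaled by library size alone. CA9 and MIR210HG, the genes with the largest rises with EGCG, had log2 fold changes of -0.38 ± 0.40 and -0.48 ± 0.30 with resveratrol and did not pass (edgeR adjusted p = 0.469 and 0.186). For MIR210HG replicates 1 to 3 alone gave 0.01 and replicates 4 to 6 gave -1.28.

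The comparisons of each agent with control share the control libraries, so their values are set side by side with no count of overlap. BNIP3 had log2 fold changes of 0.83 with EGCG and -0.20 with resveratrol, and ERO1A had 0.15 and -0.14. BNIP3L had 0.40 and 0.41, NDRG1 had 0.39 and 0.12, and P4HA1 had 0.41 and 0.10. VLDLR had 0.37 and 0.28, P4HA2 had 0.18 and 0.22, and VEGFA had 0.14 and 0.29. EPAS1 had 0.16 and 0.82. The genes named here are those that passed in both comparisons. Of all tested genes, 1.76% were DEGs with EGCG and 56.9% with resveratrol, so passing with resveratrol does not set these genes apart.

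**Figure D4:**
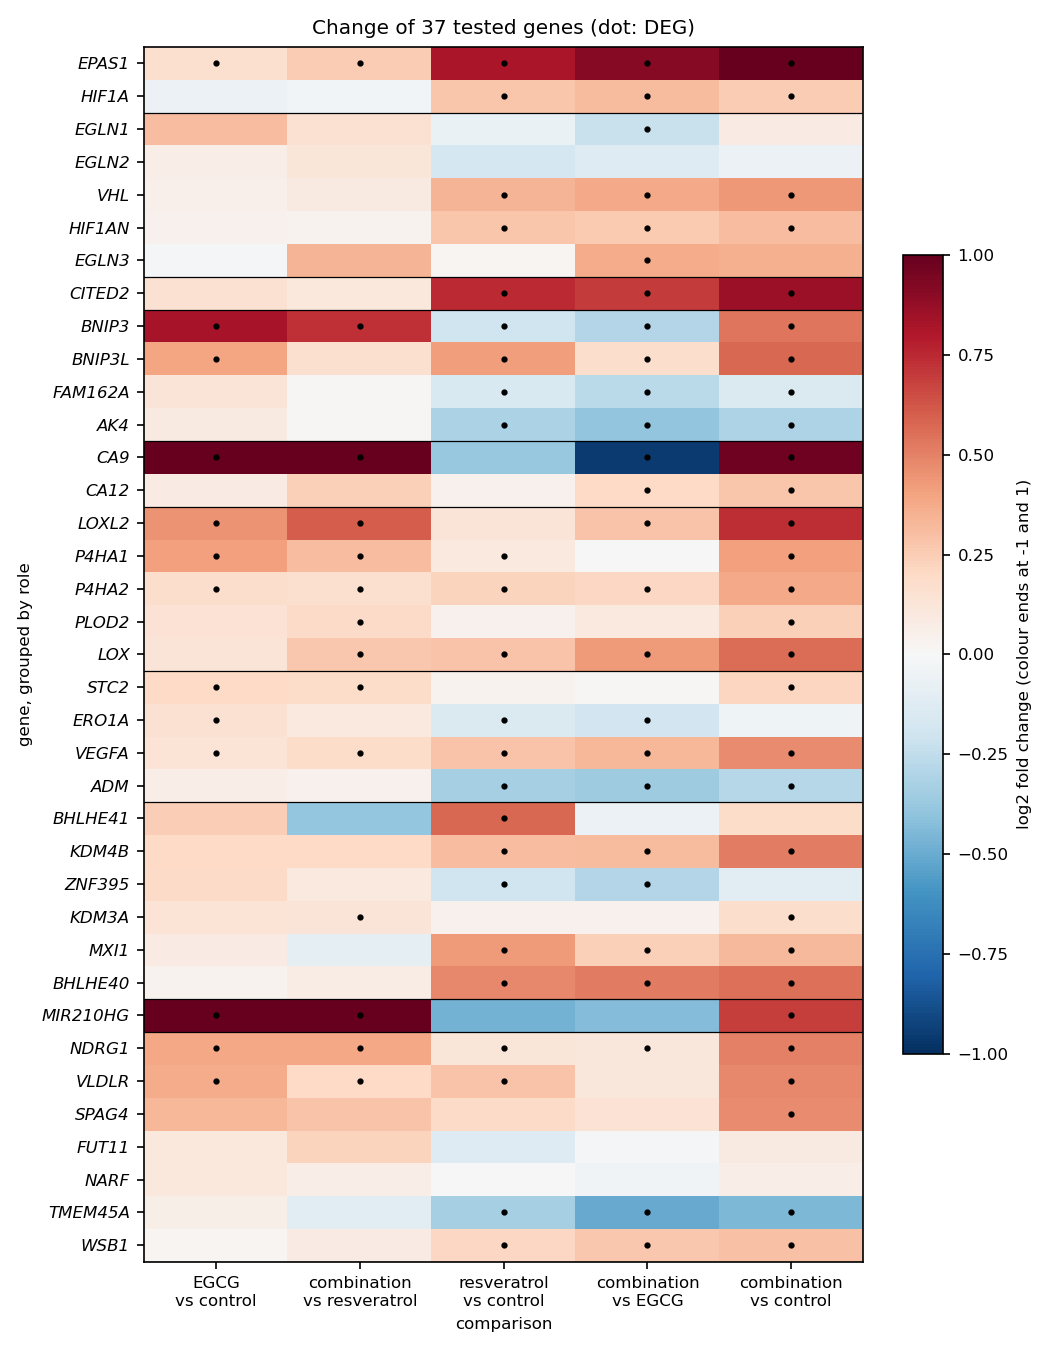
Log2 fold change (colour, ending at -1 and 1) of the 37 tested genes (rows, grouped by role) in 5 comparisons (columns), with a dot for each DEG. In the EGCG columns the targets are mostly red, in the resveratrol against control column red and blue are mixed, and EPAS1 and CITED2 are the deepest red of the regulators in the columns where resveratrol is added.

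The combination against control gave 25 upregulated and 4 downregulated listed genes of 37, against 29.9% and 29.9% of all tested genes (59.8% in either direction). All 6 combination libraries lay above control for 19 of them and below for 3, against 15.6% and 16.3% of all tested genes. The upregulated DEGs were 20 of 29 targets and 5 of 8 regulators, and the 4 that fell were FAM162A, AK4, ADM and TMEM45A. EPAS1 ranged from 1869 to 2115 normalized counts (median 1957) and rose 2.10-fold (1.07 ± 0.04, edgeR adjusted p = 1.4e-23), and CITED2 rose 1.81-fold (0.85 ± 0.05, edgeR adjusted p = 1.4e-17). LOXL2 ranged from 181 to 202 (median 187) and rose 1.67-fold (0.74 ± 0.09, edgeR adjusted p = 9.1e-09). CA9 rose by 0.97 ± 0.33 on the log2 scale and MIR210HG by 0.69 ± 0.25, both with libraries that overlapped control (edgeR adjusted p = 0.0121 and 0.02). VEGFA ranged from 1527 to 1624 (median 1557) against 1068 to 1210.0 (median 1137) in control and rose 1.38-fold (0.47 ± 0.03, edgeR adjusted p = 2.4e-14). With scaling by library size alone the listed genes divided 27 up and 3 down, and all genes 6041 up and 3311 down in place of 4633 and 4625.

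Adding EGCG to resveratrol raised 11 of the 13 genes that rose with EGCG alone. In the combination against resveratrol, 14 of 37 listed genes were upregulated, 13 of 29 targets and EPAS1, where 7.86% of all tested genes were DEGs, 4.01% upregulated and 3.86% downregulated. All 6 combination libraries lay above all 6 resveratrol libraries for 8 of the 37 and below for 0, against 1.78% and 1.4% of all tested genes. No listed gene was downregulated, and none was lower at an unadjusted p under 0.05, in edgeR or DESeq2. BNIP3 rose by 0.73 ± 0.05 (edgeR adjusted p = 8.2e-12), the rank 4 p-value of all tested genes, and its combination and resveratrol libraries did not overlap. NDRG1 rose by 0.39 ± 0.04 (edgeR adjusted p = 2.1e-09), P4HA1 by 0.31 ± 0.03 (edgeR adjusted p = 6.0e-08) and LOXL2 by 0.61 ± 0.09 (edgeR adjusted p = 1.2e-05). CA9 rose by 1.35 ± 0.35 and MIR210HG by 1.17 ± 0.27 with overlapping libraries (edgeR adjusted p = 0.0155 and 0.0066). EPAS1 rose by 0.25 ± 0.04 (edgeR adjusted p = 7.4e-06). Of the tested targets, 26 of 29 had a log2 fold change above 0, and the median over the targets was 0.18 against 0.00 over all tested genes.

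The difference that EGCG made was thus measured in 2 comparisons that share no library. Of the listed genes, 11 rose in both, which is 84.6% of the 13 that rose with EGCG alone and 78.6% of the 14 that rose beside resveratrol. For all tested genes 91 rose in both, 65.0% of 140 and 14.7% of 620. The 11 were BNIP3, CA9, MIR210HG, EPAS1, LOXL2, NDRG1, P4HA1, P4HA2, STC2, VEGFA and VLDLR. BNIP3L and ERO1A passed with EGCG alone and KDM3A, LOX and PLOD2 passed beside resveratrol. In DESeq2 the calls of KDM3A, LOX and VLDLR beside resveratrol were lost, and with only the compared groups in the fit those of KDM3A, PLOD2 and VLDLR. CA9 and MIR210HG could not be called beside resveratrol in either setting. DESeq2 gave them no adjusted p, and they did not pass the filter on low counts without the EGCG and control libraries. Each of these settings thus called 9 of the 14. Across the 37 genes, which are not independent replicates, Pearson's r between the log2 fold changes was 0.872, 0.456 over the 34 genes without CA9, MIR210HG and BNIP3, and 0.232 over all 15476 tested genes.

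**Figure D5:**
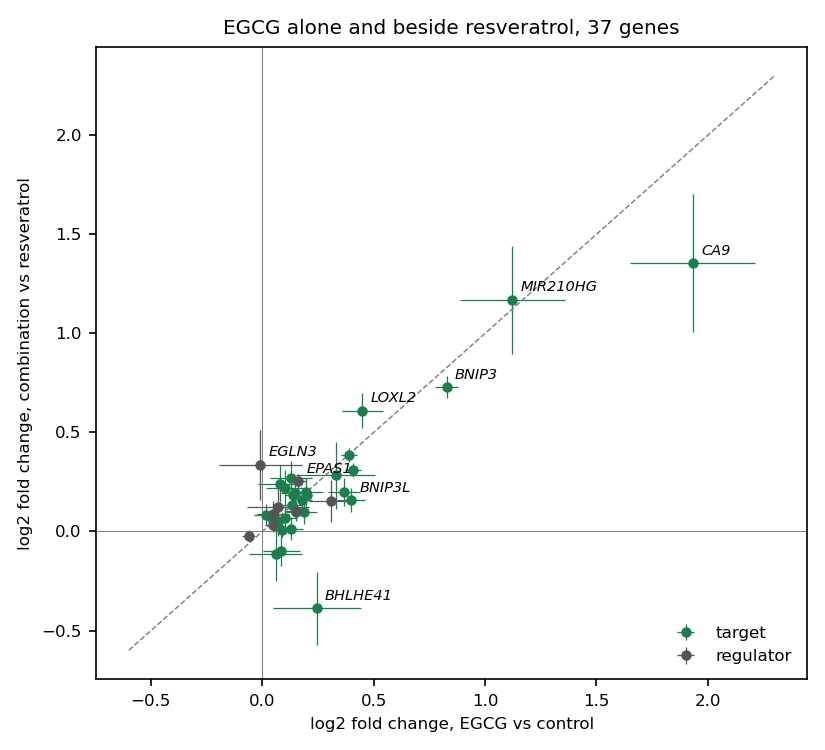
Log2 fold change with EGCG alone (horizontal axis) and with EGCG beside resveratrol (vertical axis) for the 37 tested genes, targets in green and regulators in grey, with SE as bars and a dashed line of equal change. CA9, MIR210HG and BNIP3 lie at the upper right, and BHLHE41 lies below 0 on the vertical axis at -0.39.

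The difference between these measurements was tested as the interaction of the agents. In edgeR 0 of the 37 listed genes passed, against 0.265% of all tested genes (0.207% higher and 0.0582% lower). In DESeq2 0 of the 30 with an adjusted p passed, and the other 7 (BHLHE41, CA9, EGLN2, EGLN3, MIR210HG, SPAG4 and TMEM45A) were given none. At an unadjusted p under 0.05 edgeR had 2 genes, BNIP3L with a log2 difference of -0.24 ± 0.09 (edgeR adjusted p = 0.432) and BHLHE41 with -0.63 ± 0.27 (edgeR adjusted p = 0.623), and DESeq2 had BNIP3L alone. For BNIP3 the difference was -0.10 with an approximate 95% interval of -0.25 to 0.05, and for NDRG1 it was 0.00 with an interval of -0.10 to 0.10. The low counts of CA9 left an interval of -1.55 to 0.39, so the smaller rise of CA9 beside resveratrol could not be told from an equal one at this depth.

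Adding resveratrol to EGCG raised 17 and lowered 9 of the 37 listed genes, against 28.7% and 29.1% of all tested genes (57.8% in either direction). The largest rises were of regulators, with EPAS1 at 0.91 ± 0.04 and CITED2 at 0.70 ± 0.05 (edgeR adjusted p = 2.0e-21 and 3.5e-15), and HIF1A, VHL, HIF1AN and EGLN3 also rose while EGLN1 fell by 0.23 (edgeR adjusted p = 0.0568). The EGLN3 value of 0.37 (edgeR adjusted p = 0.0829) held 0.90 in replicates 1 to 3 and -0.17 in replicates 4 to 6. It passed in 5 of 11 alternative settings, and did not in DESeq2 or with the replicate number as a block. The fall of EGLN1 passed in 6 of 11, and did not with scaling by library size alone, with the stricter count filter or in either set of replicates. BNIP3 fell by 0.29 (SE 0.05, edgeR adjusted p = 5.9e-06) and CA9 by 0.96 (SE 0.24, edgeR adjusted p = 0.00117), each with every combination library below every EGCG library. Over the 37 genes 7 had this pattern and 12 the reverse, against 14.0% and 13.5% of all tested genes. CA9 was among the tested genes only through its high EGCG libraries, so its fall from EGCG describes the values and is no independent test. With scaling by library size alone the listed genes divided 22 up and 8 down, and all genes 5737 up and 3250 down in place of 4440 and 4510.

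Other genes of the pathway, from lists made with the listed genes and also with earlier results known, gave mixed counts. Of 7 tested genes of 9 in the HIF machinery (the beta subunits, the VHL ubiquitin ligase and the coactivators), 0 passed with EGCG or beside resveratrol in either direction by edgeR. Over all tested genes 1.76% and 7.86% passed, so 0 of 7 lies near those shares and sets the machinery apart in no way. At an unadjusted p under 0.05 the machinery had 0 genes with EGCG and CUL2 alone, lower, beside resveratrol. With resveratrol, where 28.9% of all tested genes rose and 28.0% fell, ARNT, the beta subunit, rose by 0.21, and ELOC, RBX1 and CREBBP fell by 0.17, 0.25 and 0.21. Of 14 tested genes in a list of 15 other non-glycolytic targets, DDIT4 and TFRC rose with EGCG by 0.28 and 0.11 (edgeR adjusted p = 3.3e-06 and 0.0513). Beside resveratrol DDIT4, IGFBP3 and TFRC rose by 0.24, 0.20 and 0.18. These were 14.3% with EGCG against 0.905% of all tested genes, and 21.4% beside resveratrol against 4.01%. With resveratrol alone 6 of these 14 rose (42.9%) and 4 fell (28.6%, KDM4C, JMJD6, IGFBP3 and TFRC), the share that fell being close to that of all genes. These small counts are named after their values were seen. Of 21 glycolytic genes tested, 8 rose and 0 fell with EGCG (median 0.13), or 38.1% upregulated against 0.905% of all tested genes. With resveratrol 6 rose (28.6%, close to the 28.9% of all genes) and 11 fell (52.4%, against 28.0%). Beside resveratrol 10 rose and 0 fell, or 47.6% upregulated against 4.01%. None of the 21 was lower at an unadjusted p under 0.05 with EGCG or beside resveratrol.

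Several listed genes share their locus with another transcript, and the strand setting of the counting is not given in the sources used here. BHLHE41 overlaps SSPN on the opposite strand, and both had a log2 fold change of 0.57 or 0.58 with resveratrol. VLDLR overlaps VLDLR-AS1, which rose by 0.98 with resveratrol (edgeR adjusted p = 2.31e-06), and P4HA2 overlaps PDLIM4, which rose by 0.41 (edgeR adjusted p = 2.53e-06). LOXL2 overlaps ENTPD4 on the same strand, which had 0.04 with EGCG and did not pass (edgeR adjusted p = 0.905). ENTPD4 rose by 0.34 with resveratrol and by 0.30 with the combination against control (edgeR adjusted p = 3.54e-06 and 2.98e-05). The part of shared reads in the changes of these genes was not tested.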

How the data were processed

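The authors sequenced stranded, paired-end mRNA libraries from RNeasy total RNA. Per their methods and the submitters' processing notes, reads were trimmed with Trimmomatic 0.36 and aligned to GRCh38 with HISAT2 2.0.4, and DEGs were called with DESeq2 1.20.0. The counting program, annotation and strand setting are not given in the sources used here. The authors deposited raw counts per gene, normalized counts (a signal: counts over 1 size factor per library) and FPKM values.

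Raw counts were tested with edgeR 4.0.16 in R 4.3.3: TMM, filterByExpr, a quasi-likelihood fit of all 24 libraries and Benjamini-Hochberg adjustment over 15476 genes. A DEG had adjusted p under 0.1 and p under 0.05, as in the study. Intervals are the log2 fold change ± 1.96 SE. The biological coefficient of variation was 5.32%. Counting error is large for CA9, MIR210HG and BHLHE41. Steps were tested on simulated data. The genes, roles and companion lists were chosen with earlier results of these data known, and so were the alternatives. These were DESeq2 1.42.0, 2 scalings, 2 count filters, adjusted p under 0.05, only the compared groups and a replicate block. The others were the set of replicates (1 to 3 or 4 to 6) as a term, and each set alone. All 38 genes may be named, companions where a count is small. The results of 1 companion gene are not reported here. Positions are from GENCODE and RefSeq on GRCh38. Promoter entries existed for 30 of 38 genes.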

Additional observations from a re-analysis of the deposited data

Results flagged for a closer look

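In each group of 6 libraries the highest and lowest log2 CPM (edgeR, TMM scaling) of each of the 37 tested genes was checked by its gap to the next library over the whole range, and 5 of 148 sets passed Dixon's critical value, where chance gives about 7.4. The lowest library was set apart for ADM in combination replicate 4 (0.656), CA12 in resveratrol replicate 1 (0.76), EGLN1 in EGCG replicate 5 (0.639) and VHL in combination replicate 2 (0.626). The highest was set apart for CITED2 in EGCG replicate 6 (0.636). These are 5 different libraries and 5 different genes.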

How the results depend on the processing

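Over 11 alternatives 1 of the DEG calls changed sign, the rise of EGLN3 in the combination against EGCG, which was -0.17 in replicates 4 to 6 alone. Genes upregulated with EGCG numbered 6 in replicates 1 to 3 alone, genes downregulated with resveratrol 2 under library size alone and 4 in replicates 1 to 3 alone, and genes upregulated in the combination against resveratrol 9 with DESeq2 and 9 with only the compared groups fitted. DESeq2 gave no adjusted p to CA9, MIR210HG, BHLHE41, SPAG4 and ANKRD37 in the EGCG comparisons, nor in the interaction, where EGLN2, EGLN3 and TMEM45A also had none. Called in every alternative with a value were 4 of the 13 DEGs with EGCG (BNIP3, P4HA1, STC2 and NDRG1), 13 of 24 with resveratrol, 23 of 29 with the combination and 7 of 14 in the combination against resveratrol. With the replicate number as a block the counts were 14 up with EGCG, 17 up and 7 down with resveratrol, and 16 up in the combination against resveratrol. Of 36 same-numbered pairs of libraries, 2 had a correlation of deviations over 0.1 (-0.011 to 0.131), and 11 of 24 libraries correlated best with their own number. The median correlation was 0.049 for same-numbered pairs, 0.028 for other numbers in the same set of replicates and -0.012 for other numbers. Over all tested genes DEGs with EGCG numbered 273 in the main fit, 342 with the set of replicates as a term and 370 with the replicate block. The main fit did not take the numbers as pairing samples, and whether they mark paired cultures was not tested. The depth limits CA9, MIR210HG, BHLHE41 and the EGLN genes most.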
